A study of Mus musculus with 12 samples.

Results

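Polycomb group proteins keep developmental genes silent, and the messages for 9 of them, from both Polycomb complexes, were followed through the first hours of retinoic acid (RA) exposure in mouse embryonic stem (ES) cells. The members are Bmi1, Rnf2, Cbx2, Cbx7 and Cbx8 of Polycomb repressive complex 1 (PRC1) and Ezh2, Eed, Suz12 and Jarid2 of Polycomb repressive complex 2 (PRC2). Each probe set of the array whose annotated gene symbol is one of these was taken, whatever its values. That gave 26 of 45037 probe sets (control probe sets left out): 14 for PRC1 and 12 for PRC2. The 9 genes themselves were chosen with earlier results of these data known. Suz12 has 6 probe sets, Rnf2 has 5, Cbx7 and Jarid2 have 3 each, Bmi1, Cbx2, Cbx8 and Eed have 2 each, and Ezh2 has 1. Every one of the 26 is named for a single gene. The cells were KH2, a mouse ES cell line, grown on feeder cells, and 12 Affymetrix arrays make up 4 groups, each with replicates A, B and C. One group had no RA, and the others had 0.3 µM RA for 2, 4 or 6 h, given with a differentiation medium of DMEM, 10% serum and NAA. The labels do not state that untreated cells were moved to that medium, so RA and the change of medium cannot be told apart. KH2 is 1 line, and the labels do not say whether the replicates were grown separately, so every p-value here stands for the spread between these arrays, which may be technical. The titles of the untreated arrays call them WT, and no other genotype is named. Cells were replated on gelatin before lysis, and the labels' protocols differ on whether attached or unattached cells were kept.

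Polycomb repression rests on 2 enzymatic steps. PRC2 methylates a lysine in the tail of histone H3 through its catalytic subunit Ezh2, which works only when bound to Eed and Suz12, and Jarid2 is an accessory subunit that helps to bring the complex to its sites. PRC1 contains the ubiquitin ligase Rnf2 (also called Ring1b), which modifies histone H2A, paired with a Polycomb ring finger protein such as Bmi1. In canonical PRC1 a chromobox protein such as Cbx2, Cbx7 or Cbx8 reads the methyl mark left by PRC2. In ES cells Cbx7 is known as the main chromobox subunit, while Cbx2 and Cbx8 are known to be taken up during differentiation. The Hox clusters, which RA switches on, are among the best known Polycomb targets.

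The RA labels were borne out by Cyp26a1, the RA-degrading enzyme, which was 6.11, 6.85 and 6.46 higher on the log2 scale at 2, 4 and 6 h than without RA, and by Hoxb1 (2.93, 5.45 and 5.69). The 10 ES cell markers lay on each array above 6.07, the median over the whole table. So did most markers of feeder fibroblasts and trophoblast given next, so this level does not tell the cell types apart. The log2 of their summed signal was 16.27 to 16.35 without RA, 16.26 to 16.29 at 2 h, 16.07 to 16.12 at 4 h and 16.03 to 16.09 at 6 h, and 6 of the 10 were called lower at both 4 and 6 h. For the 19 measured feeder fibroblast markers it was 14.02 to 14.30 without RA, 14.11 to 14.25 at 2 h, 14.13 to 14.30 at 4 h and 13.95 to 14.09 at 6 h, with 1 or 2 of the 19 below that median on an array. The corresponding range was 10.91 to 11.32 over all arrays for 8 primitive endoderm markers and 11.59 to 12.11 for 6 trophoblast markers. At 2 h the trophoblast sums lay above all untreated ones. Of those 6 markers, only Tfap2c was called at 2 h (0.83 higher), while Cdx2, Eomes, Elf5, Krt8 and Krt18 were not. The part of any of these cell types in the results below was not tested. Untreated replicate C stood apart, with a correlation of 0.994 and 0.993 with A and B against 0.997 between A and B, and differences against no RA are therefore also given without it. In these bulk samples a loss of cells of 1 type and a lower level in each cell cannot be told apart.

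The promoters of members that changed are shown first, because they let the genes be compared by sequence. The RefSeq table used here (GRCm38.p6) matched 9 promoters of 8 of the 9 genes, with no entry for Cbx2, and the 250 bases before the start are printed 5′ to 3′ on the gene's strand. Capitals mark CACGTG (an E-box, bound by Myc family factors), CCAAT (bound by NF-Y) and AGGTCA (the core letters bound by retinoid receptors), each searched on both strands.
Bmi1, chr2:18676768-18677017, + strand: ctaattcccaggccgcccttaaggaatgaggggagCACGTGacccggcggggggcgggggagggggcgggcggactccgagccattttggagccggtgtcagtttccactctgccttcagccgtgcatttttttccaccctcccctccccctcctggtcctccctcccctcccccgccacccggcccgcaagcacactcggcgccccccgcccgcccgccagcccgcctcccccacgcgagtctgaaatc
Cbx8, chr11:119040914-119041163, - strand: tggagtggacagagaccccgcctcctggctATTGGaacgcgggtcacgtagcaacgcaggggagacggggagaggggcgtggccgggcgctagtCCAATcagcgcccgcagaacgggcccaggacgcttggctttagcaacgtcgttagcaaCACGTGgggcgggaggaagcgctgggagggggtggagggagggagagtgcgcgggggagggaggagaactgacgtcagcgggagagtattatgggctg
Jarid2, chr13:44730524-44730773, + strand: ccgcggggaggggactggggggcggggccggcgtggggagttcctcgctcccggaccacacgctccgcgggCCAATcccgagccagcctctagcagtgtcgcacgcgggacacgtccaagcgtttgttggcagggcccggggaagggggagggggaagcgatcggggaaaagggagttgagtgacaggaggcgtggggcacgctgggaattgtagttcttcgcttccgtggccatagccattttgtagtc
Cbx7, chr15:79932647-79932896, - strand: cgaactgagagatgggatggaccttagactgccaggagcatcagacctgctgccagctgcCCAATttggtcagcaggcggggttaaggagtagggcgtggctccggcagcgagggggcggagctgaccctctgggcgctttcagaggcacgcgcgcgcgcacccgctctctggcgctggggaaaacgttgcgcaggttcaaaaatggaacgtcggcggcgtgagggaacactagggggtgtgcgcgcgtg
Ezh2, chr6:47595031-47595280, - strand: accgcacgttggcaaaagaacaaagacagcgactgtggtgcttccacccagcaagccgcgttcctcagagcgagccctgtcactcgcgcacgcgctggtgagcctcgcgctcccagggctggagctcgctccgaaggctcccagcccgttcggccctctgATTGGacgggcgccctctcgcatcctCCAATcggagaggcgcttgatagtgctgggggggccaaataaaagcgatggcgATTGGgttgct
Bmi1 and Cbx8 hold 1 E-box each, from -215 to -210 and from -98 to -93 counted back from the start, and the other 7 member promoters have no match to these letters in this window. Of 32851 promoters of the same length, 6.02% hold it. Ezh2 holds 3 CCAAT matches, at -90, -64 and -11, Cbx8 holds 2, and Cbx7, Suz12 and the first Jarid2 promoter hold 1 each, against 33.8% of all promoters with at least 1. No member promoter matched AGGTCA (14.0% of all promoters do), nor therefore its direct repeats, or the E2F sequences TTTCGCGC and TTTGGCGC (0.256% and 0.417%). A search for an NRF1 sequence (in 0.782% of promoters) found none. GC content ran from 54.4% (Eed) to 73.6% (Suz12), with a median of 52.4% over all promoters. These matches describe letters and not bound sites.

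The comparisons asked which Polycomb messages changed with RA, when and in which direction. By limma with adjusted p under 0.05 over all probe sets, 1 of 26 member probe sets differed from no RA at 2 h, 7 at 4 h and 9 at 6 h. Those shares are 3.8%, 26.9% and 34.6%, while 1.81%, 18.7% and 20.6% of all probe sets were called. Probe sets of 1 gene are not separate units, and the 7 and 9 calls belong to 4 and 5 genes. Of the 26, 19 had their mean above the median of all values. By the brightest probe set of each of 18193 genes, 23.7% were called at 4 h and 26.4% at 6 h. The part of signal level in the member shares was not tested. The call at 2 h was a lower value, as for 0.906% of all probe sets. At an adjusted p under 0.01 the members called were 0, 6 and 6, against 0.659%, 10.3% and 11.8% of all probe sets. The 7 calls at 4 h were 5 rises and 2 falls, and the 9 at 6 h were 7 rises and 2 falls, against 9.34% and 9.36% of all probe sets at 4 h and 10.8% and 9.83% at 6 h. The arrays of the groups did not overlap for 5, 9 and 12 of the 26, or 19.2%, 34.6% and 46.2%, against 19.9%, 30.9% and 32.4% of all probe sets. The median of the 26 differences was -0.01, 0.03 and 0.04 at 2, 4 and 6 h, beside 0.01, 0.01 and -0.01 over all probe sets. Over the 4 groups together, 10 of 26 passed the F test (38.5%, against 25.9% of all probe sets). They belong to Bmi1, Cbx2, Cbx7, Cbx8, Ezh2 and Jarid2. No probe set of Rnf2, Eed or Suz12 was called in any of the 6 comparisons made.

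**Figure D1:**
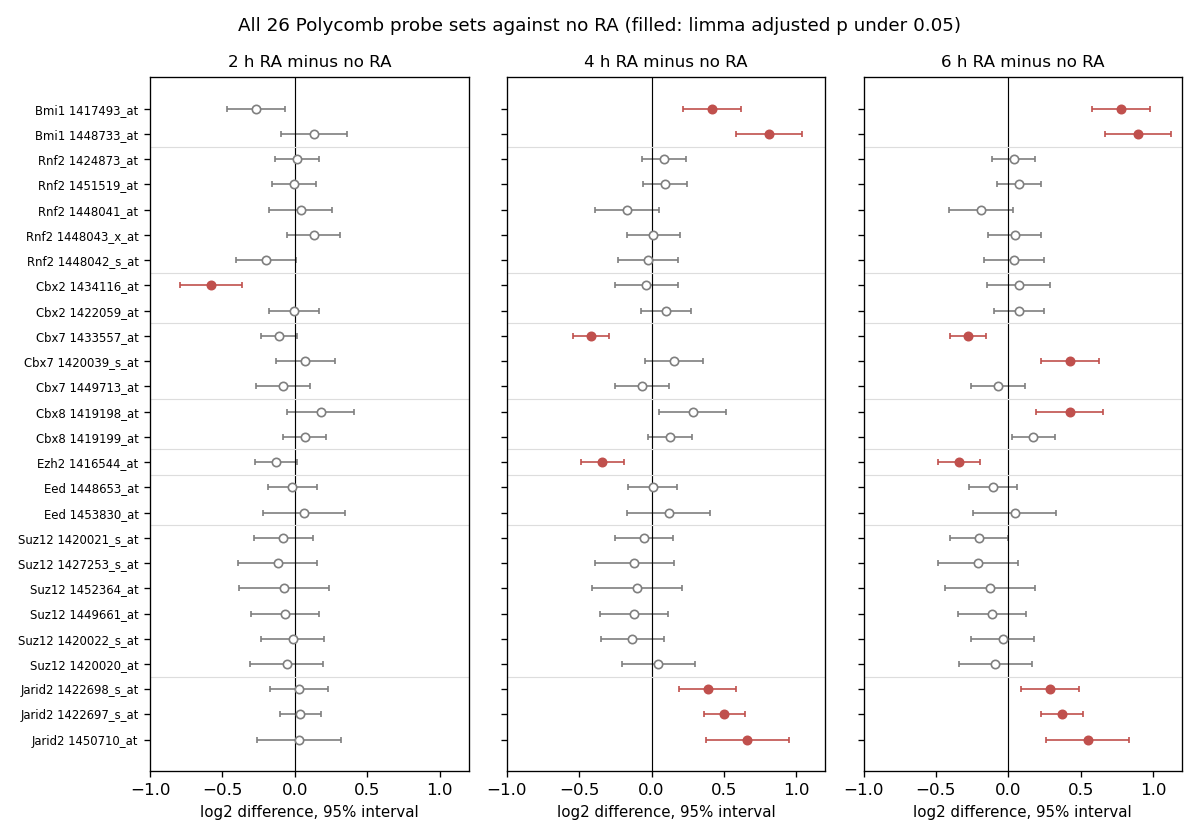
Log2 difference from no RA (x axis, with 95% interval) for each of the 26 Polycomb probe sets (y axis) at 2, 4 and 6 h, filled red where called by limma at adjusted p under 0.05. Called points are 1, 7 and 9 in number, with Bmi1 and Jarid2 to the right of 0 at 4 and 6 h, Ezh2 to the left, and Cbx7 on both sides.

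Bmi1, which partners the ligase Rnf2 in PRC1, had the largest rises among the members at 6 h. Its brighter probe set, 1417493_at, read 7.14, 7.21 and 7.25 without RA, 6.89, 6.88 and 7.04 at 2 h, 7.69, 7.62 and 7.55 at 4 h, and 8.03, 7.78 and 8.13 at 6 h. The 2 h arrays all lay below the untreated ones and the 4 and 6 h arrays all lay above them. At 2 h the difference was -0.27 ± 0.092 (SE, adjusted p = 0.182), which was not called. It rose by 0.42 ± 0.092 at 4 h (adjusted p = 0.00716) and by 0.78 ± 0.092 at 6 h (adjusted p = 0.000105), a 1.71-fold increase. Between 2 and 6 h the rise was 1.04 ± 0.092 (adjusted p = 1.9e-05), or 2.06-fold.

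The second Bmi1 probe set, 1448733_at, had its mean below the median of all values, so no fold is given for it. It read 4.82, 4.90 and 5.07 without RA, 4.87, 5.19 and 5.11 at 2 h, 5.91, 5.67 and 5.64 at 4 h, and 5.72, 5.92 and 5.83 at 6 h. Here the 2 h arrays overlapped the untreated ones, and the later arrays lay above both. The rise was 0.81 ± 0.10 at 4 h (adjusted p = 0.00024) and 0.90 ± 0.10 at 6 h (adjusted p = 9.8e-05). Both probe sets come from the same source sequence, so they are not independent. Their changes differed by 0.40 at 2 h, 0.40 at 4 h and 0.12 at 6 h (exact two-sided permutation test, 3 arrays against 3, p = 0.1, 0.1 and 0.5), where 0.1 is the smallest p this design allows. Without untreated replicate C the 6 h rises were 0.80 and 0.97.

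**Figure D2:**
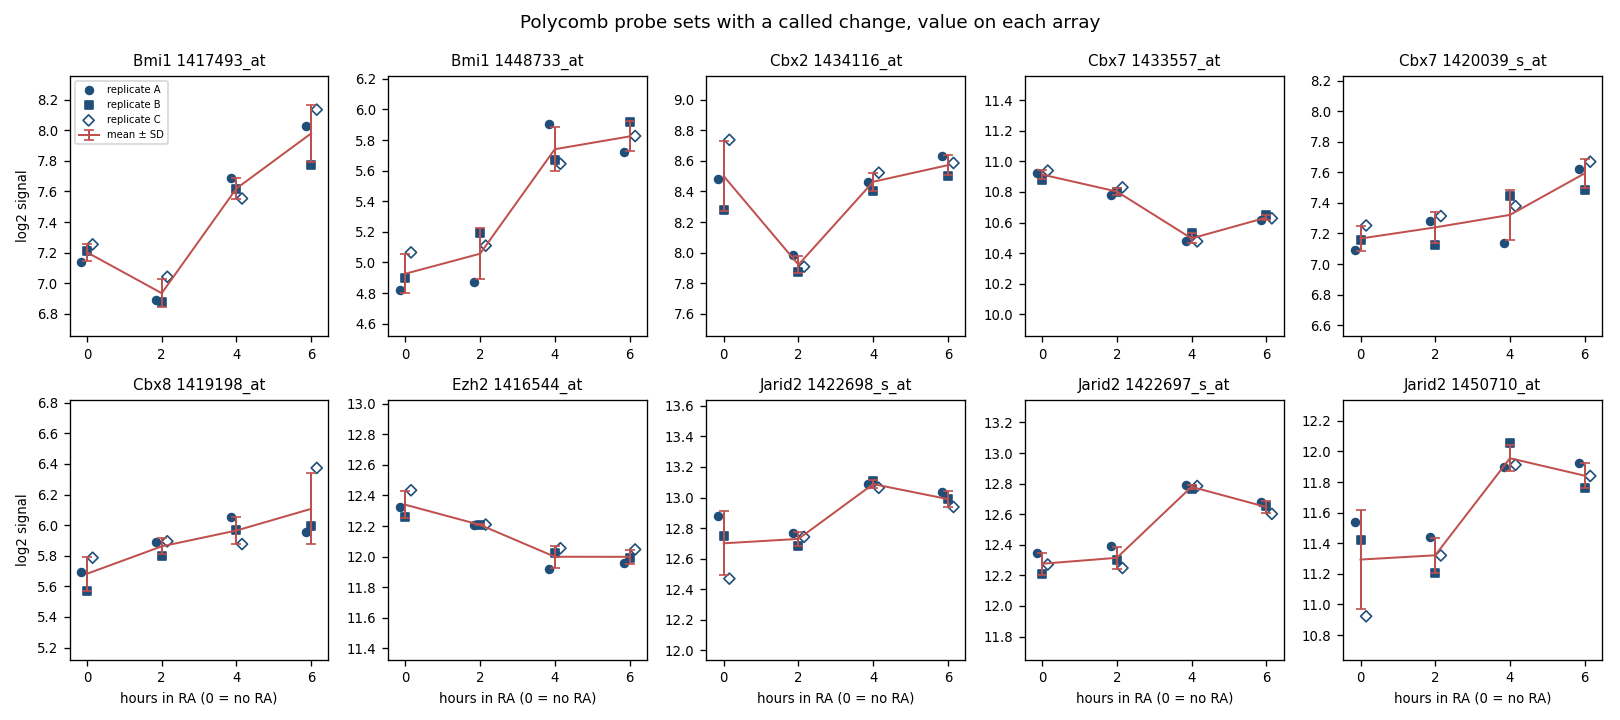
Log2 signal (y axis, each panel spanning the same range of log2 units) on every array against hours in RA (x axis) for the 10 Polycomb probe sets that passed the F test, with circles, squares and open diamonds for replicates A, B and C and red lines for group means ± SD. Bmi1 and Jarid2 climb between 2 and 4 h, Cbx2 dips at 2 h, and the probe sets of Cbx7 part in opposite directions.

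Rnf2, the ubiquitin ligase of PRC1, showed no called difference. Its brightest probe set, 1424873_at, read 12.35, 12.35 and 12.20 without RA, 12.30, 12.26 and 12.38 at 2 h, 12.39, 12.43 and 12.34 at 4 h, and 12.39, 12.36 and 12.26 at 6 h. All 4 groups overlapped. The next, 1451519_at, ran from 11.19 to 11.41 over the 12 arrays. Probe sets 1448041_at, 1448043_x_at and 1448042_s_at lay near the median of all values, between 5.49 and 6.79. Over the 5 probe sets and 3 times, differences from no RA ranged from -0.20 to 0.13, the lowest adjusted p was 0.242, and the 95% intervals reached from -0.41 to 0.32. Those outer bounds come from the dimmer probe sets, and for 1424873_at the intervals reached from -0.14 to 0.24. In the fit with the replicate letter as a block, 1448041_at was called lower at 6 h than at 2 h (-0.23, adjusted p = 0.037), against 0.135 without the block. With array weights, 1448042_s_at was called higher in that comparison (0.27, adjusted p = 0.0262), against 0.0945 without weights. These 2 dim probe sets thus went in opposite directions.

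Cbx2, a chromobox subunit, fell at 2 h and was back at its untreated level by 4 h. Probe set 1434116_at read 8.48, 8.28 and 8.74 without RA, 7.98, 7.87 and 7.91 at 2 h, 8.46, 8.41 and 8.52 at 4 h, and 8.63, 8.50 and 8.59 at 6 h. Each 2 h array lay below every other array of the series. It fell by 0.58 ± 0.10 at 2 h (adjusted p = 0.0114), to a 1.49-fold lower signal, and was the 1 member called at that time. At 4 and 6 h the differences from no RA were -0.04 ± 0.10 and 0.07 ± 0.10 (95% intervals -0.25 to 0.18 and -0.14 to 0.29). From 2 h it rose by 0.54 ± 0.10 to 4 h (adjusted p = 0.00301) and by 0.65 ± 0.10 to 6 h (adjusted p = 0.000627). Without untreated replicate C the 2 h fall was 0.46 ± 0.079 and stayed called (adjusted p = 0.00993). The 2 h call was lost without RA 2 h replicate B (adjusted p = 0.0577) and when the 6 arrays compared were fitted alone (adjusted p = 0.116). The other Cbx2 probe set, 1422059_at, stayed between 3.63 and 3.88, below the median of all values, with no call.

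Cbx7, the chromobox subunit that prevails in ES cells, gave probe sets that moved apart. The brightest, 1433557_at, read 10.92, 10.88 and 10.94 without RA, 10.78, 10.80 and 10.83 at 2 h, 10.48, 10.53 and 10.48 at 4 h, and 10.62, 10.65 and 10.63 at 6 h. The groups did not overlap, with the lowest arrays at 4 h. It fell by 0.42 ± 0.057 at 4 h (adjusted p = 0.000359) and by 0.28 ± 0.057 at 6 h (adjusted p = 0.00392), a signal 1.34-fold and 1.22-fold lower. At 2 h the difference was -0.11 ± 0.057 (adjusted p = 0.383). Between 2 and 4 h it fell by 0.31 ± 0.057 (adjusted p = 0.00332).

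Probe set 1420039_s_at of Cbx7 read 7.09, 7.16 and 7.25 without RA, 7.28, 7.12 and 7.31 at 2 h, 7.14, 7.45 and 7.38 at 4 h, and 7.62, 7.49 and 7.67 at 6 h. The 6 h arrays lay above all the others. It rose by 0.43 ± 0.093 at 6 h (adjusted p = 0.00599), with 0.15 ± 0.093 at 4 h (adjusted p = 0.308). The suffix _s marks probes that may match more than 1 transcript, and probe sets of Jarid2, Suz12 and Rnf2 carry it too. Within arrays, the 6 h change of 1420039_s_at exceeded that of 1433557_at by 0.71 (exact two-sided permutation test, p = 0.1, the smallest that 3 against 3 allows). Such tests were made only between probe sets that had passed the F test on these same values, so they are not separate evidence. The third Cbx7 probe set, 1449713_at, comes from the same source sequence as 1420039_s_at, lay between 4.63 and 4.91, and had no call. Averaged over its 3 probe sets, Cbx7 changed by -0.11 at 4 h (adjusted p = 0.242) and 0.02 at 6 h (adjusted p = 0.832), so a fall of Cbx7 holds for 1433557_at alone. Leaving out untreated replicate C moved the 4 and 6 h values of 1433557_at to -0.40 and -0.27, both still called. The 6 h rise of 1420039_s_at was then 0.47 (adjusted p = 0.00567).

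Cbx8, another chromobox subunit, was higher at 6 h on the brighter of its probe sets, both of which lie below the median of all values. Probe set 1419198_at read 5.69, 5.57 and 5.79 without RA, 5.89, 5.80 and 5.89 at 2 h, 6.05, 5.97 and 5.88 at 4 h, and 5.95, 5.99 and 6.37 at 6 h. Each RA array lay above each untreated array. It rose by 0.42 ± 0.11 at 6 h (adjusted p = 0.0134), after 0.18 ± 0.11 and 0.28 ± 0.11 at 2 and 4 h, which were not called (adjusted p = 0.452 and 0.0899). Without RA 6 h replicate C, the highest array, the 4 h value of 0.28 was called (adjusted p = 0.0259), as it was with array weights (0.32, adjusted p = 0.0499). Leaving out untreated replicate B ended the 6 h call (0.37, adjusted p = 0.0538), and so did fitting the 6 arrays compared alone (adjusted p = 0.067). Without untreated replicate C the 6 h rise was 0.48 and stayed called (adjusted p = 0.0115). Probe set 1419199_at, from the same source sequence, ran from 5.08 to 5.33 with differences of 0.07, 0.13 and 0.17, none called.

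Ezh2, the methyltransferase of PRC2, fell modestly at 4 and 6 h. Its probe set 1416544_at read 12.32, 12.26 and 12.43 without RA, 12.20, 12.21 and 12.21 at 2 h, 11.92, 12.02 and 12.05 at 4 h, and 11.96, 11.99 and 12.05 at 6 h. All RA arrays lay below all untreated arrays, and the 4 and 6 h arrays overlapped each other. It fell by 0.34 ± 0.068 at 4 h (adjusted p = 0.00395) and by 0.34 ± 0.068 at 6 h (adjusted p = 0.00333), a 1.27-fold decrease at each time. The 2 h difference was -0.13 ± 0.068 (adjusted p = 0.381). Without untreated replicate C, the highest of the untreated arrays, the falls were 0.29 and 0.29 (adjusted p = 0.00859 and 0.00716). The further fall from 2 to 6 h, 0.21 ± 0.068 (adjusted p = 0.0423), lost its call when any 1 of 8 of the 12 arrays was left out.

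Eed, the subunit that binds the methyl mark and activates Ezh2, had no called difference. Probe set 1448653_at read 12.38, 12.41 and 12.16 without RA, 12.32, 12.29 and 12.28 at 2 h, 12.34, 12.33 and 12.31 at 4 h, and 12.29, 12.23 and 12.11 at 6 h. Each RA group overlapped the untreated arrays, while the 6 h arrays all lay below the 4 h arrays (-0.11 ± 0.077, adjusted p = 0.645). The second probe set, 1453830_at, ran from 4.38 to 4.86, below the median of all values. Differences from no RA over both lay between -0.11 and 0.12, with 95% intervals from -0.27 to 0.41 and a lowest adjusted p of 0.403.

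Suz12, the scaffold subunit of PRC2, likewise had no call on any of 6 probe sets. The brightest, 1420021_s_at, read 11.90, 12.14 and 11.83 without RA, 11.92, 11.74 and 11.98 at 2 h, 11.94, 11.93 and 11.84 at 4 h, and 11.81, 11.78 and 11.66 at 6 h. At 6 h all 3 arrays lay below the untreated ones, with a difference of -0.20 ± 0.092 (adjusted p = 0.154). Probe sets 1427253_s_at (10.66 to 11.22) and 1452364_at (9.74 to 10.32) spread widely among replicates. The remaining probe sets, 1449661_at, 1420022_s_at and 1420020_at, lay between 6.82 and 7.77. Over the 6 probe sets and 3 times, differences ranged from -0.21 to 0.05, and the 95% intervals from -0.48 to 0.30.

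Jarid2, the accessory subunit of PRC2, was the 1 gene with 3 probe sets called in the same direction at both 4 and 6 h. All 3 come from 1 source sequence. Probe set 1422697_s_at read 12.35, 12.21 and 12.27 without RA, 12.39, 12.30 and 12.25 at 2 h, 12.79, 12.76 and 12.78 at 4 h, and 12.68, 12.66 and 12.60 at 6 h. The 2 h arrays overlapped the untreated ones, and the later arrays lay above both groups with little spread. The rise was 0.50 ± 0.065 at 4 h (adjusted p = 0.000257) and 0.37 ± 0.065 at 6 h (adjusted p = 0.00156), or 1.42-fold and 1.29-fold, and at 2 h the difference was 0.04 ± 0.065.

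Probe set 1450710_at of Jarid2 read 11.54, 11.42 and 10.92 without RA, 11.44, 11.21 and 11.32 at 2 h, 11.90, 12.06 and 11.91 at 4 h, and 11.93, 11.76 and 11.84 at 6 h. Untreated replicate C was the lowest of its 12 arrays. It rose by 0.66 ± 0.13 at 4 h (adjusted p = 0.00413) and by 0.55 ± 0.13 at 6 h (adjusted p = 0.0109), and without replicate C by 0.48 and 0.36 (adjusted p = 0.00287 and 0.0115).
The brightest, 1422698_s_at, read 12.88, 12.75 and 12.47 without RA, 12.77, 12.68 and 12.74 at 2 h, 13.09, 13.11 and 13.06 at 4 h, and 13.04, 12.99 and 12.94 at 6 h. It rose by 0.39 ± 0.091 at 4 h (adjusted p = 0.0104) and by 0.29 ± 0.091 at 6 h (adjusted p = 0.0408). Its 6 h call was lost when any 1 of 11 of the 12 arrays was left out, with 0.17 (adjusted p = 0.0876) without untreated replicate C. With the 6 arrays compared fitted alone, its 4 and 6 h calls were lost (adjusted p = 0.0656 and 0.146), as was that of 1450710_at at 6 h (0.0556). The changes of 1450710_at exceeded those of 1422698_s_at by 0.28 at 4 h and 0.26 at 6 h (exact two-sided permutation test, p = 0.1 for both, the smallest possible).

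**Figure D3:**
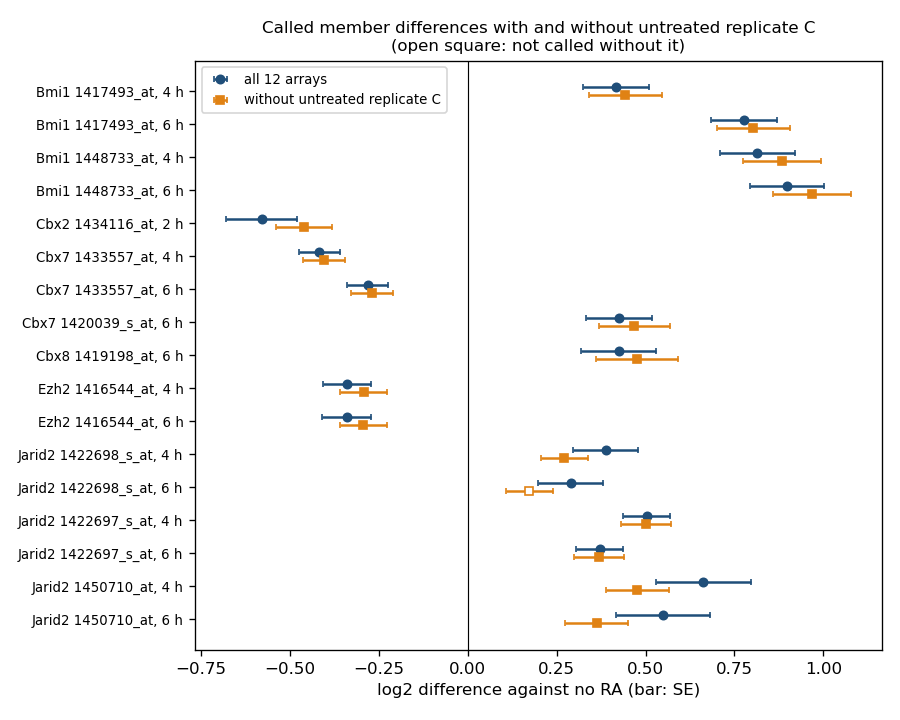
Log2 difference from no RA with its SE (x axis) for each called member difference (y axis: gene, probe set and time), with all 12 arrays (blue circles) and without untreated replicate C (orange squares, open where no longer called). The 1 open square is Jarid2 1422698_s_at at 6 h, and the directions are the same with and without that array.

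The timing of the changes was followed by comparing the RA groups with each other, in the same fit, so that the untreated arrays enter the estimate of the spread but not the differences. Without untreated replicate C, for example, the Ezh2 difference from 2 to 4 h (-0.21, adjusted p = 0.0546) was called (adjusted p = 0.0255). From 2 to 4 h, 7 of 26 member probe sets were called, 6 higher and 1 lower, against 16.3% of all probe sets (9.24% higher and 7.09% lower). At an adjusted p under 0.01 there were 6 (8.11% of all probe sets). The 7 were both Bmi1 probe sets (0.68 and 0.68), 3 of Jarid2 (0.36, 0.46 and 0.63), Cbx2 1434116_at and Cbx7 1433557_at. Only the 0.36 of Jarid2 1422698_s_at was above the 0.01 level (adjusted p = 0.018). Its call was lost when any 1 of 4 arrays was left out. From 4 to 6 h limma called none of the 26, where 0.173% of all probe sets were called (0.104% higher and 0.0688% lower). The largest of the 26 differences was that of Bmi1 1417493_at, 0.36 ± 0.092 (adjusted p = 0.154), and its 4 and 6 h arrays did not overlap. From 2 to 6 h, 8 were called, 6 higher and 2 lower, against 22.9% of all probe sets (13.0% and 9.85%), and 4 at an adjusted p under 0.01 (12.9%). The 8 fell to 4 without RA 2 h replicate B or RA 6 h replicate A, and to 5 without RA 6 h replicate C. The arrays did not overlap for 10, 7 and 11 of the 26 in these steps, against 37.9%, 19.8% and 43.3% of all probe sets. These comparisons share groups with those against no RA and are not separate evidence of the same changes.

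The genes whose profiles lay nearest to a member were sought among 5829 other genes that passed the F test, by the root mean square difference of mean-centred log2 values over the 12 arrays. For Bmi1 they were the anion exchanger Slc4a2 (0.116) and Pick1 (0.120). For Cbx2 they were Trp53bp2 (0.080) and Kctd6 (0.091), whose 2 h differences of -0.42 and -0.48 follow from this way of choosing them. Dlg1 (0.036) and Fam3c (0.042) lay nearest to Cbx7 1433557_at. Near Cbx8 were the amino acid transporter subunit Slc7a5 (0.095) and Otub1 (0.097). Near Ezh2 were the replication factor C subunit Rfc1 (0.036) and the mitochondrial protease Lonp1 (0.036). Jarid2 1422698_s_at lay nearest to a probe set annotated to Snord104 (0.044) and to the heparan sulfate sulfotransferase Hs2st1 (0.045).

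Other Polycomb genes were read from the brightest probe set of each gene, with 35 of 37 listed genes measured. Of the 35, 3 were called at 2 h (2 higher, 1 lower), 12 at 4 h (6 and 6) and 10 at 6 h (6 and 4). Among 18193 genes, 1.25% were higher and 0.781% lower at 2 h, 11.2% and 12.5% at 4 h, and 13.3% and 13.1% at 6 h. The median difference of the 35 was -0.02, 0.01 and 0.10, beside 0.00, 0.00 and -0.01 over all genes.

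Of 21 other PRC1 genes, none was called at 2 h, 2 rose and 4 fell at 4 h, and 4 rose and 3 fell at 6 h. The Polycomb ring finger gene Pcgf5 fell by 0.65 ± 0.089 and 0.62 ± 0.089 at 4 and 6 h, while its probe set 1434666_at fell at 4 h by 0.25 and had 0.01 at 6 h. Phc1, a Polyhomeotic subunit of canonical PRC1, fell by 0.38 ± 0.066 and 0.40 ± 0.066, and Auts2, a partner of variant PRC1, by 0.88 ± 0.091 and 0.90 ± 0.091. E2f6, a repressor found in variant PRC1, rose by 0.35 ± 0.078 and 0.39 ± 0.078, and the corepressor Bcor rose by 0.58 ± 0.14 at 6 h. Phc2 and Ring1, the paralogue of Rnf2, rose at 6 h by 0.35 ± 0.089 and 0.20 ± 0.062, Pcgf3 rose at 4 h by 0.32 ± 0.062, and Scmh1 fell at 4 h by 0.26 ± 0.076. The 6 h calls of Ring1 and Phc2 were lost without untreated replicate B (0.17 and 0.26), among other arrays, and that of Scmh1 without untreated replicate C (-0.23, adjusted p = 0.0652) or any 1 of the 4 h arrays. The other Pcgf3 probe sets, 1428424_at and 1440203_at, had -0.01 and 0.05 at 4 h, and the average over the gene's probe sets was 0.12 (adjusted p = 0.278).

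Of 8 other PRC2 genes, 1, 3 and 1 were higher and 0, 1 and 0 lower. Aebp2, an accessory subunit that shares a PRC2 subtype with Jarid2, rose at 2 h by 1.09 ± 0.10 and at 4 h by 0.69 ± 0.10, and had 0.16 ± 0.10 at 6 h on its brightest probe set. On its probe sets 1435070_at, 1437743_at and 1455616_at Aebp2 was still called at 6 h, at 0.51, 0.92 and 0.62. Epop, an accessory subunit of the other PRC2 subtype, rose by 0.68 ± 0.16 and 0.64 ± 0.16 at 4 and 6 h, and Phf1 by 0.35 ± 0.084 at 4 h. Ezh1, the second methyltransferase, fell by 0.68 ± 0.15 at 4 h and had -0.39 ± 0.15 at 6 h. Without untreated replicate C these were -0.44 (still called) and -0.14, and without untreated replicate A the 6 h value was -0.54 and was called (adjusted p = 0.0226). With the 6 arrays compared fitted alone the 4 h call was lost (adjusted p = 0.0586). The call of Epop was lost at 4 h without RA 4 h replicate B (0.56) and at 6 h without untreated replicate B (0.54) or RA 6 h replicate A (0.61), and that of Phf1 without RA 4 h replicate A (0.29). The histone-binding subunits Rbbp4 and Rbbp7 had -0.03 and -0.11 at 6 h and no call.

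Among 6 genes that oppose Polycomb marks, Kdm6b, a demethylase that removes the PRC2 mark, rose at every time, by 0.45 ± 0.070, 0.66 ± 0.070 and 0.81 ± 0.070. Its relative Kdm6a was not called (0.10, 0.11 and 0.13). Asxl1, a cofactor of the deubiquitinase that removes the PRC1 mark, fell by 0.73 ± 0.18 and 0.74 ± 0.18 at 4 and 6 h. Its untreated arrays spread widely (SD 0.52). Both calls were lost without untreated replicate B (-0.58 and -0.60), the one at 4 h also without untreated replicate A or RA 4 h replicate A. Without untreated replicate C the differences were -1.03 and -1.04, both called. The Asxl1 probe set 1434561_at had -0.16 and -0.10 and was not called. Asxl3 was called at 2 h (-0.45 ± 0.094), with its mean below the median of all values, and that call was lost without untreated replicate B or any 1 of the 2 h arrays.

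**Figure D4:**
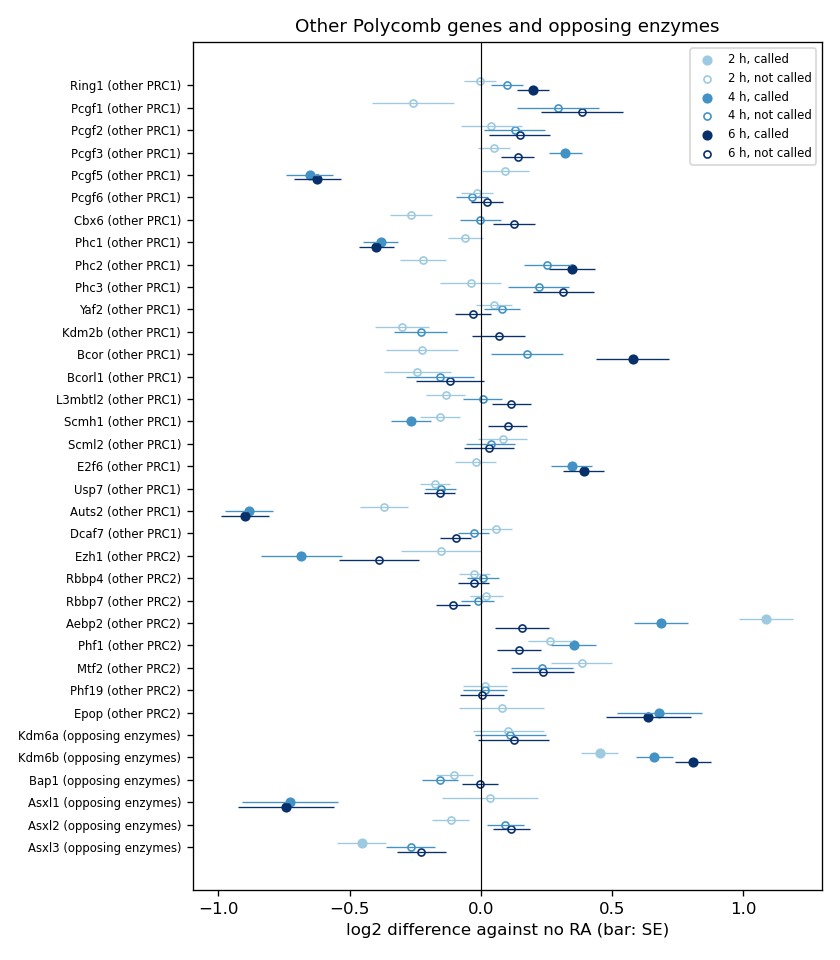
Log2 difference from no RA with its SE (x axis) for 35 other Polycomb genes and genes opposing them (y axis), at 2, 4 and 6 h in light to dark blue, filled where called. Aebp2 lies farthest right at 2 h (1.09), Kdm6b rises at each time, and Auts2 lies farthest left at 4 and 6 h (-0.88 and -0.90).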

How the data were processed

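RNA from 12 samples of KH2 ES cells was read on Affymetrix mouse arrays; per the labels' protocols, 200 ng of RNA was labelled with biotin after cells were replated on gelatin for 30 min. The deposited values are log2 signal per probe set, and limma 3.4.3 is named by the submitters' processing notes. The method of normalization is not given in the sources used here, so background correction cannot be judged. Array medians lay between 6.05 and 6.10, and values were used as deposited.

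Probe sets were named by the platform annotation (34945 for 1 gene, 932 for several, 9160 for none; 64 controls left out). One limma 3.58.1 fit (R 4.3.3, lmFit and eBayes) of 45037 probe sets held 4 group means, with 8 residual and 4.23 prior degrees of freedom; calls are at a Benjamini-Hochberg adjusted p under 0.05 over all probe sets. Differences are given with the SE of the fit. The fit was tested on simulated data. The number of arrays limits the precision. The members and lists were chosen with earlier results of these data known.

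Every member probe set was reported. Of other Polycomb genes, up to 4 called genes per class and direction at 4 and 6 h were named; Asxl3, Kdm6a, Rbbp4 and Rbbp7 were named after their values were seen. Nearest profiles were taken for members whose brightest probe set passed the F test. Permutation tests between probe sets of a gene were made only where both had passed it. Replicate letters were not used to pair the arrays in the main fit. Deviations of same-letter arrays correlated from -0.16 to 0.26, over 0.1 in 4 of 18 pairs. For arrays of different letters the range was -0.23 to 0.20, over 0.1 in 7 of 36 pairs. Between 4 and 6 h arrays the same-letter values were 0.19 (A), 0.03 (B) and 0.26 (C), so a link between those groups is not excluded. Alternatives covered normalization, centring, probe set choice, dim probe sets, variance model, array weights, arrays fitted, the replicate block, threshold and each array left out. Figures were drawn with matplotlib 3.10.9.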

Additional observations from a re-analysis of the deposited data

How the results depend on the processing

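Quantile normalization, median centring, the dim filter, the trended variance, array weights and the replicate block each left the counts of called member probe sets within 1.5 times of those reported. With the replicate letter as a block the counts were 1, 7 and 9 at 2, 4 and 6 h against no RA. Taking the brightest probe set of each of the 9 genes gave 4, 5, 5 and 6 calls at 4 h, at 6 h, from 2 to 6 h and in the F test, while averaging the probe sets of each gene gave 4, 4, 4, 4 and 5 at 4 h, at 6 h, from 2 to 4 h, from 2 to 6 h and in the F test, where fewer features were tested. From 2 to 6 h, probe sets without a suffix gave 4 calls and an adjusted p under 0.01 gave 4. At 2 h the single call went to 0 when only the groups compared were fitted and at an adjusted p under 0.01. Leaving out each array in turn gave 0 to 1 calls at 2 h and 4 to 9 from 2 to 6 h. Of the 35 other Polycomb genes, 5 were called at 6 h at an adjusted p under 0.01, a level that 11.8% of all probe sets passed. No share over all features is given for the alternative fits, so their counts only show how far the member counts moved. Under that averaging Cbx7 turned to 0.0236 at 6 h and 0.064 from 2 to 6 h, Scmh1 to 0.0803 at 4 h, and Asxl2, not called before, to -0.21 and -0.22 at 4 and 6 h; the cause was not tested. Probe sets below the median of all values were not tested against background, and 7 of the 26 members had their mean there.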

Other observations

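Cbx2 and Cbx8 are adjacent protein-coding genes on mouse chromosome 11 in the RefSeq gene order. At 2 h Cbx2 1434116_at had -0.58 and Cbx8 1419198_at 0.18, and at 6 h the values were 0.07 and 0.42. The difference between the neighbours was not tested. Mtf2, an accessory subunit of PRC2, had 0.38, 0.24 and 0.24 at 2, 4 and 6 h on its brightest probe set, which was not called with all arrays but was at each time without untreated replicate B (0.52, 0.37 and 0.37). On 1418515_at (0.45, 0.43 and 0.33) and 1449115_at (0.52, 0.57 and 0.53) Mtf2 was called at each time with all arrays, and the average over its probe sets was called too (0.33, 0.33 and 0.33). Pcgf1, the ring finger protein of a variant PRC1, had 0.30 and 0.39 at 4 and 6 h and was called without untreated replicate C (0.55 and 0.64). Phc3 had 0.22 and 0.31 and was likewise called without that array (0.37 and 0.46). Usp7, one of the other PRC1 genes, went lower, with -0.17, -0.15 and -0.16 at 2, 4 and 6 h on its brightest probe set, not called. The average over its probe sets was called lower at 2 and 4 h (-0.27 and -0.27). These genes were chosen after their values were seen.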
